A study of Homo sapiens with 12 samples.

Results

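The genes described here are those of the human mitochondrial genome, which were chosen by position: every row of the count table whose Ensembl identifier GENCODE 29 places on chromosome M of hg38. They were 37 of the 58735 genes in the table, namely 13 mRNA genes, 2 rRNA genes and 22 tRNA genes. The 12 libraries came from THP-1 macrophages. THP-1 is a cell line grown from the blood of a patient with monocytic leukaemia, and its cells can take on macrophage properties. In 6 of them the cells had received a miR-122-5p mimic, a synthetic form of the microRNA, and in 6 a control miRNA mimic. Both mimics were delivered with the lipid reagent RNAimax at 30 nM for 24 h, and after a rest both groups were stimulated for 4 h with lipopolysaccharide (LPS), so every library is of LPS-treated cells and there is no untransfected or unstimulated group. Separate cultures are not stated for the 6 libraries of either group. A p-value here therefore reflects only how much these libraries vary, and that variation may be technical.

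The mitochondrial genome is a small circular DNA present in many copies per cell. Both of its strands are transcribed into long precursors, from which the tRNAs are cut out like punctuation to release the mRNAs and rRNAs, and the amounts of the finished RNAs are then set largely by how fast each is processed and degraded. Its mRNAs encode core subunits of respiratory chain complexes I, III and IV and of the ATP synthase (complex V), which are assembled with subunits made from nuclear genes; in macrophages this machinery is known to be remodelled after LPS. In bulk RNA a change in the number of mitochondria or genomes per cell and a change in RNA per genome cannot be told apart.

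The sequences that bear on the results are given first. The microRNA is shown because the comparison is defined by it, with its seed (bases 2 to 8) in capitals, from RefSeq (GRCh38.p14, chromosome 18, 58451088 to 58451109, plus strand). Under it are the 3 places in mitochondrial mRNAs that hold the full 8mer ACACTCCA, the reverse complement of the seed followed by A, in capitals within 30 bases of the gene's own strand in hg38 (chrM:6868-6897, chrM:12898-12927 and chrM:15315-15344, all plus strand).
hsa-miR-122-5p: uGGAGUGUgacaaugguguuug
MT-CO1: gctgactcgccACACTCCAcggaagcaata
MT-ND5: tgatttatcctACACTCCAactcatgagac
MT-CYB: cagccctagcaACACTCCAcctcctattct

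The second set shows where genes of this genome run into one another, which limits what can be counted for MT-ATP8. The last bases of MT-ATP8 (chrM:8497-8572, plus strand) and the first of MT-ATP6 (chrM:8527-8602, plus strand) are given with the 46 bases they share in capitals.
MT-ATP8 end: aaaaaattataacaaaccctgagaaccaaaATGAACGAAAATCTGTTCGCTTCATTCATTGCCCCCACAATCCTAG
MT-ATP6 start: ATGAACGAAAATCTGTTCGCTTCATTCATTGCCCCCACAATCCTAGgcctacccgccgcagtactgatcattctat
The last set is the proline tRNA MT-TP (chrM:15956-16023, minus strand), the only tRNA gene with enough counts to be tested, and the phenylalanine tRNA MT-TF (chrM:577-647, plus strand), the only other tRNA gene with any count.
MT-TP: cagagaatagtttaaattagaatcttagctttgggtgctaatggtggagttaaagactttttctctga
MT-TF: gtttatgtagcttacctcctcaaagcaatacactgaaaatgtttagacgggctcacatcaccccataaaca

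Libraries held 29473750 to 35684464 gene counts in the miR-122-5p group and 31019890 to 39468157 in the control group. Control library 1 stood apart in mitochondrial RNA. It lay below all 5 other control libraries for 14 of the 16 mitochondrial genes that could be tested, and above all 5 for 0, so results are given with and without it. It was singled out by its values for these same genes. Leaving out the lowest control raises the control mean, so p-values and overlaps without it are descriptive only. Levels are given as CPM, a gene's count divided by the library total after scaling with TMM factors. Libraries also differed in how log2 CPM changed with transcript GC content, with slopes relative to the mean library of 0.034 to 0.229 log2 units per 10 percentage points of GC in the miR-122-5p group and of -0.318 to 0.012 in the control group, control library 1 being the lowest. These slopes did not overlap between the groups, and counts and calls are also given from 2 fits that take the trend into account, one with trends in GC content and length removed and one with the slope as a covariate. Because the slope separates the groups, the covariate fit cannot cleanly tell the slope from the mimic. A call lost in that fit therefore does not show that the change was absent. Of 13 macrophage markers, 11 could be tested and their summed level was 5133 to 5969 CPM in the miR-122-5p group and 5555 to 6292 CPM in the control group. Of the 11, 2 were called higher (ITGAM and TYROBP) and 6 lower (CD14, CSF1R, AIF1, FCER1G, LAPTM5 and CD163), against 24.3% and 26.2% of all tested genes. All 6 were also lower with GC and length trends removed, and CD14, CSF1R, FCER1G and CD163 with the GC slope as a covariate. ITGAM and TYROBP were called in neither fit. SPI1, not called at first, was lower in both, and LYZ and CD33 were higher in the first. CD68 averaged 0.239 CPM in the miR-122-5p group and 0.216 CPM in the control group, and MRC1 was at 0 in the miR-122-5p group and averaged 0.0729 CPM in the control group; their part in the results was not tested. Of 11 markers of other cell types CD3E, CD3D and EPCAM were at 0 in all libraries, and PECAM1, which myeloid cells also express, made up nearly all of the sum, which was 239.97 to 281 CPM in the miR-122-5p group and 237 to 255 CPM in the control group.

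Fold changes divide the miR-122-5p level by the control level and are on the log2 scale with their standard error (SE). The p-values of edgeR's quasi-likelihood test were adjusted by the Benjamini-Hochberg method across the 15471 genes tested; a gene is called at an adjusted p under 0.05. Few mitochondrial genes were called. Of the 13 mRNA genes 0 were called higher and 2 lower, MT-ATP8 and MT-ND4L, against 50.5% of all tested genes called, 24.3% higher and 26.2% lower. Of the 2 rRNA genes 1 was called lower, MT-RNR2, and so was the tRNA gene MT-TP. The median log2 fold change of the 13 mRNAs was -0.11 with 10 of 13 below 0, and 0.02 after correction for GC content and length, while that of all tested genes was 0.01. The groups did not overlap for 0 of the 13 mRNA genes, 0 of the rRNA genes and MT-TP among the tRNA genes, against 29.5% of all tested genes.

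**Figure D1:**
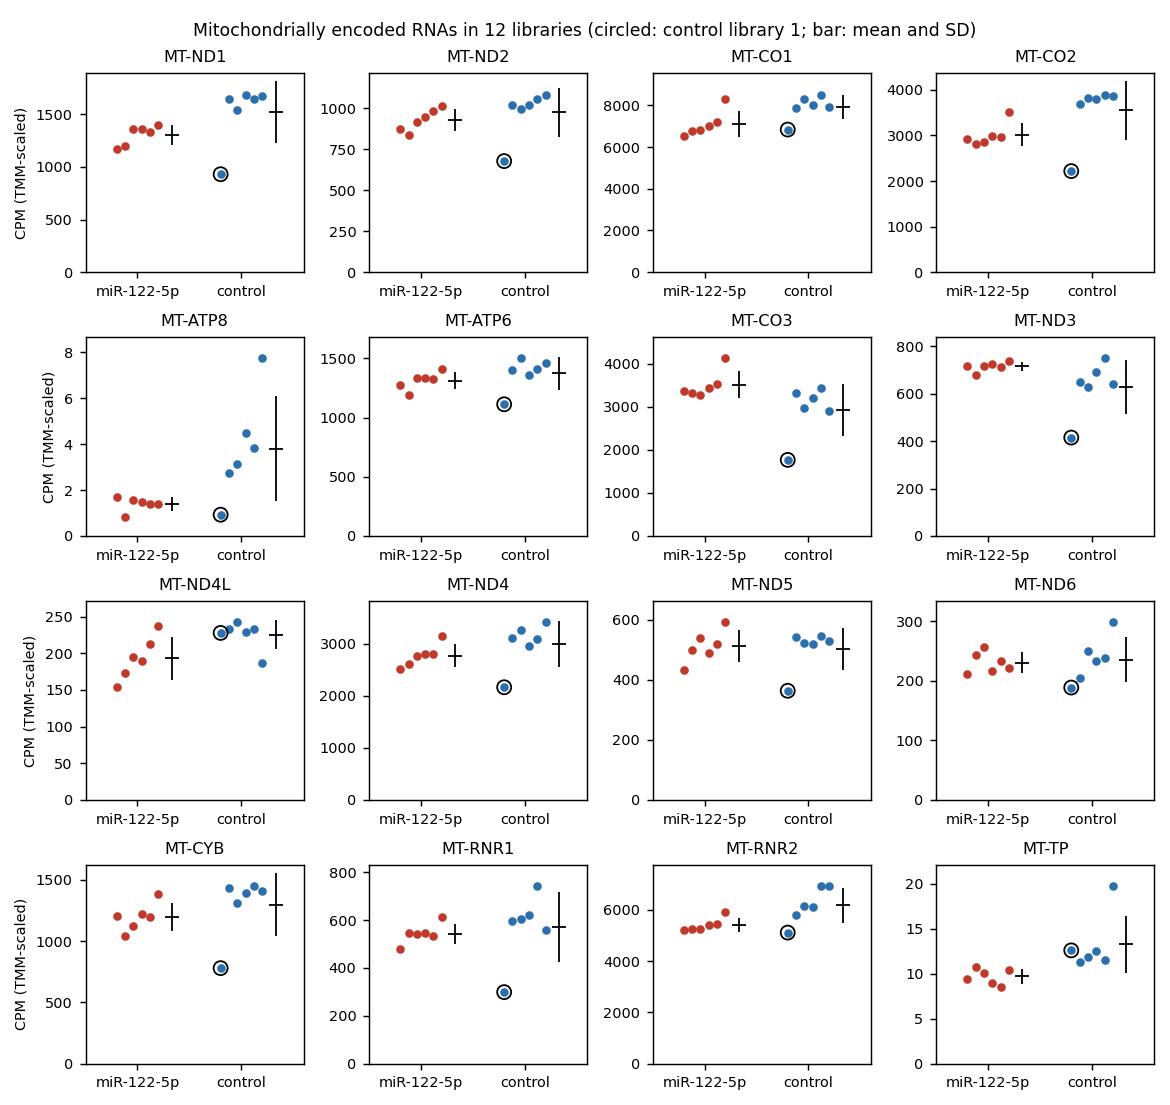
Level of each tested mitochondrial gene in every library (vertical axis, CPM scaled with TMM factors, starting at 0), miR-122-5p libraries in red and control libraries in blue, with the mean and SD of each group as a bar and control library 1 circled. MT-TP shows no overlap between the groups, and the circled library is the lowest control for 14 of the 16 genes.

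Together the 13 mRNA genes took 2.06% to 2.64% of a library's counts in the miR-122-5p group (2.31 ± 0.200%, SD, n = 6) and 1.76% to 2.59% in the control group (2.38 ± 0.308%, SD, n = 6). Control library 1 gave the 1.76%, and the other 5 control libraries lay between 2.46% and 2.59%. The 2 rRNA genes took 0.604 ± 0.0372% in the miR-122-5p group and 0.664 ± 0.0797% in the control group (SD, n = 6 each), and the tRNA genes 0.000989 ± 9.06e-05% in the miR-122-5p group and 0.00131 ± 0.000324% in the control group (SD, n = 6 each). The ratio of rRNA to mRNA counts was 0.262 ± 0.00711 in the miR-122-5p group and 0.280 ± 0.0197 in the control group (SD, n = 6 each). The ranges of the groups overlapped for all of these measures except the tRNA share, which rests on MT-TP.

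Complex I, the NADH dehydrogenase through which most electrons enter the chain, has 7 mitochondrially encoded subunits. They form its membrane arm, and of the 7 genes 1 was called lower and 0 higher. MT-ND4L, one of the smallest of these subunits, had 154, 192 and 237 CPM (lowest, median and highest library) in the miR-122-5p group, against 187, 231 and 242 CPM in the control group. The groups overlapped: miR-122-5p library 6 lay among the controls, and control library 6, the lowest control, lay among the miR-122-5p libraries. The log2 fold change was -0.22 ± 0.09 (SE; edgeR adjusted p = 0.0445). The call was narrow: with each library left out in turn it was kept only when the one omitted was number 5 or 6 of the miR-122-5p group or number 6 of the controls, and ended without any of the other 9 libraries (edgeR adjusted p 0.0550 to 0.131). It also ended with GC and length trends removed (-0.17, adjusted p = 0.138) and with the GC slope as a covariate (-0.11, adjusted p = 0.684).

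MT-ND1, the subunit next to the quinone-binding site, had 1172, 1348 and 1397 CPM in the miR-122-5p group, against 931, 1651 and 1689.6 CPM in the control group. The 931 was control library 1, and without it every miR-122-5p library lay below every control library. The log2 fold change was -0.22 ± 0.11 with all libraries (SE; edgeR adjusted p = 0.0882) and -0.33 ± 0.06 without control library 1 (adjusted p = 6.89e-05). MT-ND2 had 836, 931 and 1015 CPM in the miR-122-5p group, against 677, 1021 and 1084 CPM in the control group, and MT-ND4 had 2514, 2778 and 3146 CPM in the miR-122-5p group, against 2163, 3095 and 3409.8 CPM in the control group. Both encode proton-pumping subunits, and for both the groups overlapped. Their log2 fold changes were -0.07 ± 0.09 and -0.11 ± 0.09 (edgeR adjusted p = 0.544 and 0.297), and -0.15 ± 0.06 and -0.19 ± 0.06 without control library 1 (adjusted p = 0.0367 and 0.0133).

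The remaining complex I genes did not pass the test with all libraries or without control library 1. MT-ND3, which encodes a small subunit at the joint of the 2 arms, had 681, 717 and 737 CPM in the miR-122-5p group, against 415, 646 and 749 CPM in the control group. The miR-122-5p libraries all lay inside the control range, and the log2 fold change was 0.18 ± 0.10 (edgeR adjusted p = 0.116), or called at 0.24 (adjusted p = 0.0465) without control library 5, the highest control. MT-ND5, the largest pumping subunit, had 433, 509 and 592 CPM in the miR-122-5p group, against 364, 525 and 546 CPM in the control group, with a log2 fold change of 0.02 ± 0.09 (adjusted p = 0.844). MT-ND6 is the only mRNA gene annotated on the minus strand, and it had 211, 228 and 256 CPM in the miR-122-5p group, against 189, 236 and 298 CPM in the control group (log2 fold change -0.03 ± 0.09, adjusted p = 0.788). The strand setting of the counting is not given in the sources used here, and if strand was not used, reads from the opposite strand cannot be told apart from MT-ND6.

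MT-CYB encodes cytochrome b, the catalytic membrane subunit of complex III and the only one made in mitochondria. It had 1045, 1204 and 1381 CPM in the miR-122-5p group, against 779.9, 1403 and 1448 CPM in the control group. Control library 1 was again the low one, and the miR-122-5p libraries overlapped the other 5 controls at their top. The log2 fold change was -0.11 ± 0.11 (SE; edgeR adjusted p = 0.416) with all libraries and -0.22 ± 0.06 (adjusted p = 0.00612) without control library 1.

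The 3 core subunits of cytochrome c oxidase (complex IV), which passes electrons to oxygen, had fold changes of both signs, and none passed the test with all libraries. MT-CO1, the haem- and copper-bearing subunit where oxygen is reduced, had 6547, 6918 and 8309 CPM in the miR-122-5p group, against 6841, 7967 and 8523 CPM in the control group. The groups overlapped, and the log2 fold change was -0.15 ± 0.07 (SE; edgeR adjusted p = 0.0618). MT-CO2, which accepts electrons from cytochrome c, had 2814, 2947 and 3520.4 CPM in the miR-122-5p group, against 2217, 3812 and 3899.7 CPM in the control group; the overlap came from control library 1, the lowest library of all 12, and the log2 fold change was -0.24 ± 0.10 (adjusted p = 0.0649). Both were called lower without control library 1 (MT-CO1 -0.19 ± 0.06, adjusted p = 0.0107; MT-CO2 -0.34 ± 0.06, adjusted p = 4.70e-05) and also without miR-122-5p library 6, the highest of its group.

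MT-CO3, the third core subunit, had a fold change above 0 with all libraries. It had 3287, 3409 and 4127 CPM in the miR-122-5p group, against 1769, 3098 and 3429 CPM in the control group, and the groups overlapped only where control libraries 2 and 5 lay above the lowest miR-122-5p libraries. The log2 fold change was 0.26 ± 0.11 (SE; edgeR adjusted p = 0.0580), and 0.15 ± 0.06 (adjusted p = 0.0532) without control library 1, the lowest. Leaving out control library 2 or control library 5 made it a call, and the adjusted p ran from 0.0353 to 0.134 over the 12 libraries left out in turn. With GC and length trends removed it was called higher (0.30, edgeR adjusted p = 0.0279). With the GC slope as a covariate its log2 fold change was 0.00014 (edgeR adjusted p = 0.9997).

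Relative to the other mitochondrial mRNAs the difference in MT-CO3 was plainer. It made up 15.4 ± 0.389% of all mitochondrial mRNA counts in the miR-122-5p group and 12.04 ± 1.24% in the control group, and MT-ND3, the next mRNA gene along the genome, made up 3.15 ± 0.178% in the miR-122-5p group and 2.59 ± 0.185% in the control group (SD, n = 6 each). MT-CO2 made up 13.2 ± 0.305% in the miR-122-5p group and 14.6 ± 1.03% in the control group (SD, n = 6 each). MT-CO1 made up 31.2 ± 0.503% in the miR-122-5p group and 33.04 ± 2.82% in the control group (SD, n = 6 each), with control library 1 at 38.7%. MT-CO3 counts were 114.7% to 118.9% of MT-CO2 counts in every miR-122-5p library and 74.8% to 90.3% in every control library, control library 1 included. This pair was chosen after its values were seen, so no test is given. When libraries were scaled to their total of mitochondrial mRNA counts in place of all genes, MT-CO3 was called higher (log2 fold change 0.36, edgeR adjusted p = 0.00585), MT-ND3 too (0.28, adjusted p = 0.0375), and MT-ATP8 lower (-1.32, adjusted p = 0.000162), against 40.7% of all genes called under that scaling, 23.0% higher and 17.7% lower. That scaling fixes the mean of the group, so it shows unequal change among the mRNAs and not which of them changed.

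**Figure D2:**
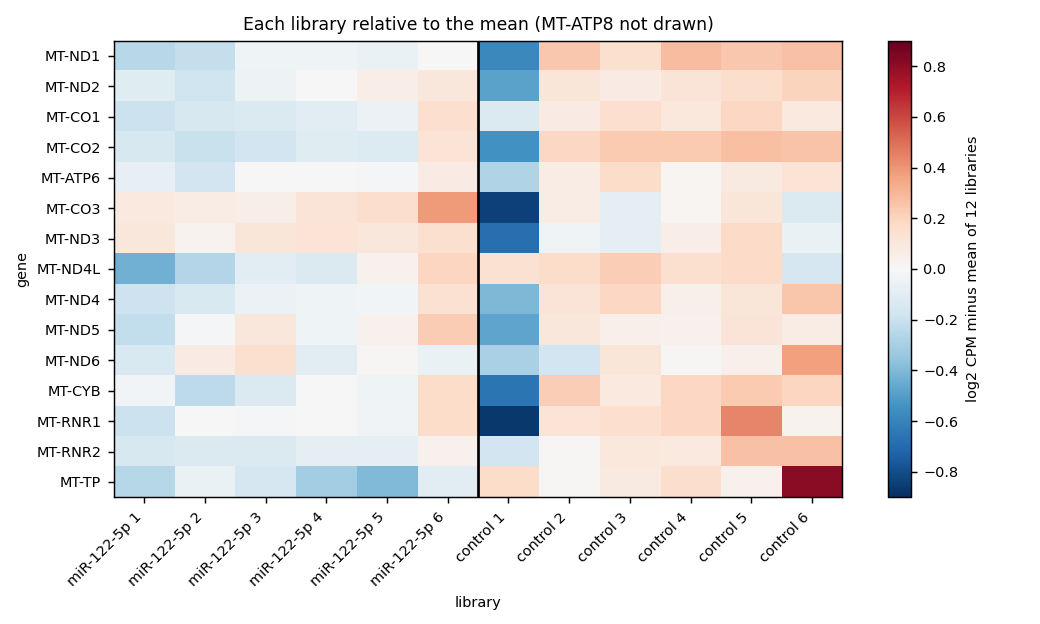
Log2 CPM of each gene in each library minus its mean over the 12 libraries (colour, red above and blue below the mean). Columns are libraries, miR-122-5p to the left of control. Rows are the mRNA genes in genome order, then MT-RNR1, MT-RNR2 and MT-TP. MT-ATP8 is not drawn because its range would hide the others. Control library 1 is the bluest column for most mRNAs but not for MT-ND4L and MT-TP. MT-CO3 and MT-ND3 are above their mean in all 6 miR-122-5p libraries, but control library 1 (-0.84 and -0.68) lowers that mean. Control libraries 2, 4 and 5 are also above it for MT-CO3, and control libraries 4 and 5 for MT-ND3.

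MT-ATP8 and MT-ATP6, the mitochondrially encoded subunits of ATP synthase, are read from one transcript in overlapping frames. MT-ATP6, which forms part of the proton channel, had 1189.8, 1330.1 and 1412 CPM in the miR-122-5p group, against 1112, 1407 and 1499 CPM in the control group. The groups overlapped, and the log2 fold change was -0.07 ± 0.07 (SE; edgeR adjusted p = 0.454). MT-ATP8, a small accessory subunit, had 0.807, 1.44 and 1.69 CPM in the miR-122-5p group, against 0.926, 3.48 and 7.73 CPM in the control group. Control library 1 was the only control within the miR-122-5p range, and control library 6 was the highest of all. The log2 fold change was -1.45 ± 0.33 (SE; edgeR adjusted p = 0.000787), and the call held with each of the 12 libraries left out in turn, from -1.65 without control library 1 to -1.11 without control library 6.

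This MT-ATP8 result rests on few reads. The gene had 24 to 58 counts in the miR-122-5p libraries and 32 to 283 in the control libraries, 1083 in all, against 548943 for MT-ATP6. The 46 shared bases printed above are part of its 207 bases, and how the counting treated reads that touch both genes is not given in the sources used here. MT-ATP8 counts were 0.0678% to 0.133% of MT-ATP6 counts in the miR-122-5p group and 0.0833% to 0.529% in the control group, so the row holds a small and uneven part of the reads of a transcript that carries both genes. With the GC slope of the libraries added to the fit MT-ATP8 was not called, although its log2 fold change did not shrink (-1.53, edgeR adjusted p = 0.107). MT-ND4L and MT-ND4 likewise share 7 bases, and MT-ATP6 and MT-CO3 share 1.

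The 2 rRNAs are the RNA cores of the mitochondrial ribosome. MT-RNR2, the large subunit rRNA, had 5213, 5338 and 5915 CPM in the miR-122-5p group, against 5114, 6135 and 6921 CPM in the control group. Control libraries 1 and 2 lay below the highest miR-122-5p library and the other 4 above it, and the log2 fold change was -0.19 ± 0.07 (SE; edgeR adjusted p = 0.0287). The call was kept when number 6 of the miR-122-5p group or number 1 or 2 of the controls was left out, and ended without any of the other 9 libraries (adjusted p 0.0527 to 0.102). It also ended with GC and length trends removed (-0.004, adjusted p = 0.965) and with the GC slope as a covariate (-0.13, adjusted p = 0.518). MT-RNR1, the small subunit rRNA, had 478, 543 and 612 CPM in the miR-122-5p group, against 299, 601 and 741 CPM in the control group, with a log2 fold change of -0.07 ± 0.13 (adjusted p = 0.689) that became -0.20 ± 0.07 (adjusted p = 0.0277) without control library 1. MT-RNR1 counts were 9.17% to 10.4% of MT-RNR2 counts in the miR-122-5p group and 5.85% to 10.7% in the control group. The labels do not say whether RNA was selected by poly(A) tail or by removal of rRNA, and rRNA levels depend on that step.

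Of the 22 tRNA genes, 20 had 0 counts in all 12 libraries. That bounds only the reads assigned to them, at up to 0.0775 to 0.101 CPM in a library (3 counts, counting error only). How short RNAs were retained and how reads that also touch a neighbouring gene were counted is not given. The zeros therefore do not show that these tRNAs were absent. MT-TF had 2, 0, 0, 4, 2 and 2 counts in the miR-122-5p libraries and 0, 0, 0, 0, 2 and 0 in the control libraries, too few to test. MT-TP had 8.51, 9.75 and 10.8 CPM in the miR-122-5p group, against 11.3, 12.2 and 19.7 CPM in the control group. Every miR-122-5p library lay below every control library, and control library 6 was well above the other controls. The log2 fold change was -0.45 ± 0.13 (SE; edgeR adjusted p = 0.00499), and with each library left out in turn it ran from -0.49 to -0.30 and stayed called, with the smallest change without control library 6. With the GC slope as a covariate it was -0.20 (adjusted p = 0.616). MT-TP lies on the minus strand at the end of the coding region and is 68 bases long, and without strand information its reads cannot be told apart from those of the opposite strand. The 286 to 370 counts in the miR-122-5p libraries and 357 to 721 in the control libraries are thus not shown to be the mature tRNA.

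Leaving out control library 1, a choice made after its low values were seen, changed the picture of the mRNAs. With the remaining 11 libraries 7 of 13 mRNA genes were called lower and 0 higher, against 49.2% of all tested genes called and 25.3% called lower. The 7 were MT-ND1, MT-ND2, MT-CO1, MT-CO2, MT-ATP8, MT-ND4 and MT-CYB; the groups did not overlap for MT-ND1, MT-CO2 and MT-ATP8, against 32.2% of all genes, and MT-ND4L was no longer called (edgeR adjusted p = 0.0550). Both rRNA genes were called lower. Without miR-122-5p library 6 in its place, 4 mRNA genes were called lower, MT-CO1, MT-CO2, MT-ATP8 and MT-ND4L, against 49.2% of all genes called, 23.8% higher and 25.4% lower. The median log2 fold change of the mRNAs without control library 1 was -0.19. With control library 6 left out as well, a choice made after seeing the data, again 7 mRNA genes were called lower and 0 higher, against 47.3% of all genes called, 23.2% higher and 24.1% lower. In control library 1 the levels of MT-CYB, MT-CO3, MT-ND1 and MT-CO2 were 55.8%, 55.8%, 56.8% and 58.1% of the mean of the other 5 controls, MT-RNR1 was 47.9%, MT-CO1 84.2% and MT-ATP8 21.1%, while MT-ND4L was 101.3% and MT-TP 94.0%. The library was therefore low for most mitochondrial RNAs but by unequal amounts; what made it so was not tested.

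The GC trend moved the calls as well. With each library's trends in transcript GC content and length removed, MT-CO3 (log2 fold change 0.30, edgeR adjusted p = 0.0279) and MT-ND3 (0.31, adjusted p = 0.0133) were called higher and MT-ATP8 lower (-1.34, adjusted p = 0.00132), while MT-RNR2 was at -0.004 and not called; 46.8% of all genes were called in that fit, 23.0% higher and 23.8% lower. With the GC slope as a covariate 0 of the 13 mRNA, 2 rRNA and 1 tRNA genes tested were called, against 19.4% of all genes, 7.22% higher and 12.2% lower. The mRNA genes themselves had 39.6% to 47.7% GC. Group and slope cannot be cleanly told apart in the covariate fit. The part of the GC trend in the results was not tested beyond these fits.

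**Figure D3:**
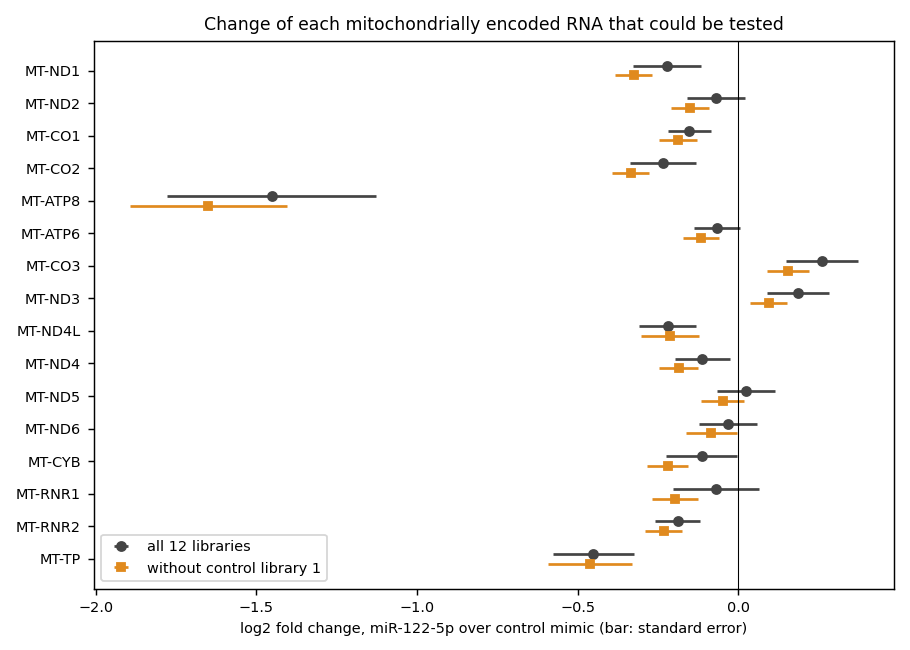
Log2 fold change of each tested mitochondrial gene, miR-122-5p over control (horizontal axis, with standard errors as bars), from all 12 libraries (circles) and without control library 1 (squares). The mRNA genes are in genome order, followed by MT-RNR1, MT-RNR2 and MT-TP. MT-ATP8 is the farthest from 0 at -1.45, MT-CO3 and MT-ND3 lie above 0 in both fits, and leaving out the library moves most mRNAs to lower values with smaller errors.

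Levels per length differed widely between RNAs of the same precursors. Per kilobase, in CPM, MT-CO1 was at 4611 ± 408 in the miR-122-5p group and 5129.6 ± 375 in the control group, MT-CO3 at 4485 ± 398 in the miR-122-5p group and 3744 ± 773 in the control group, and MT-CO2 at 4409 ± 375 in the miR-122-5p group and 5189 ± 960.3 in the control group (SD, n = 6 each). MT-RNR2 was at 3474 ± 167 in the miR-122-5p group and 3959 ± 441 in the control group (SD, n = 6 each). These were the highest 4. In the miR-122-5p group MT-CO1, MT-CO3 and MT-CO2 lay within 1 SD of one another and above MT-RNR2. In the control group MT-CO2 and MT-CO1 lay within 1 SD of each other, and below them so did MT-RNR2 and MT-CO3. MT-ND3, MT-ND4 and MT-ATP6 followed at 1926 to 2069 CPM per kilobase in the miR-122-5p group and 1819.8 to 2174 in the control group, with neighbours not separated beyond their spread. Below them came MT-ND1, MT-CYB, MT-ND2, MT-ND4L, MT-RNR1, MT-ND6 and MT-ND5, in the same order in both groups, from 1365 to 283 CPM per kilobase with miR-122-5p and from 1592 to 278 with control mimic. MT-ATP8 was last at 6.71 ± 1.49 CPM per kilobase in the miR-122-5p group and 18.4 ± 10.97 in the control group (SD, n = 6 each), far from MT-ATP6 on the same transcript. MT-CO2 was 15.6 times MT-ND5 in the miR-122-5p group and 18.7 times in the control group.

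**Figure D4:**
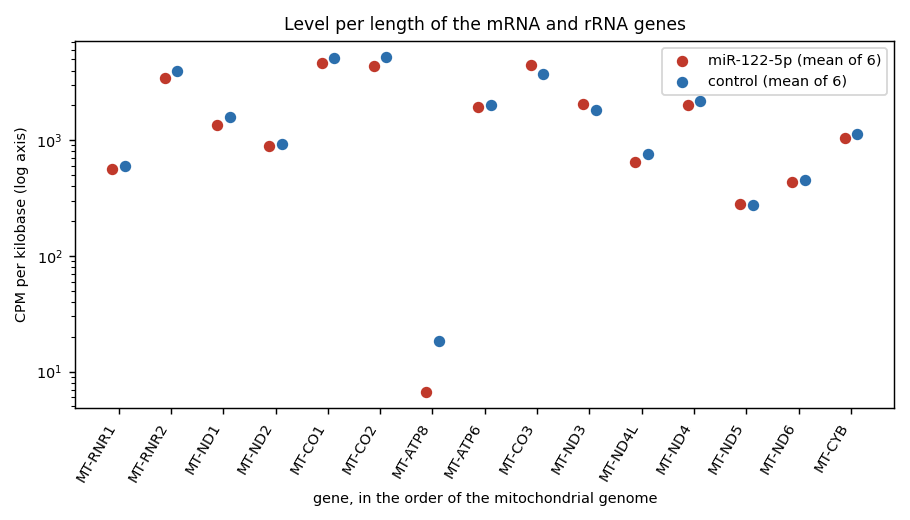
Mean level per kilobase of the 13 mRNA and 2 rRNA genes (vertical log axis, CPM per kilobase) in genome order, miR-122-5p in red to the left of control in blue. The 3 MT-CO genes and MT-RNR2 are the highest and MT-ATP8 stands far below all others at 6.71 CPM per kilobase with miR-122-5p and 18.4 with control mimic.

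The 8mer ACACTCCA printed above, the longest of the seed-match words searched on the transcript's own strand, was found in 3 of 13 mRNA genes. It starts at base 976 of the 1542 of MT-CO1, base 573 of the 1812 of MT-ND5 and base 580 of the 1141 of MT-CYB. In a window of the same length from the start of coding transcripts it was present in 2.28%, 2.71% and 1.66% of those at least as long. The 7mer CACTCCA, which the 8mer contains, was found 2 times in MT-CO3 and the 6mer CACTCC 3 times there, those 2 included; MT-ND4L held the 6mer once, and the other 8 mRNA genes held none of these words. The 3 genes with the 8mer had log2 fold changes of -0.15 (MT-CO1), 0.02 (MT-ND5) and -0.11 (MT-CYB), a median of -0.11, against a median of -0.09 for the 10 without it. MT-CO3, with shorter matches only, had a log2 fold change of 0.26. A match in the letters does not show a site.

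The genes end in different ways: 6 of the 13 mRNA genes end inside a codon, MT-ND1 with TA and MT-ND2, MT-CO3, MT-ND3, MT-ND4 and MT-CYB with T, so that the stop codon is completed by the poly(A) tail. MT-CO1 ends in AGA and MT-ND6 in AGG. MT-ND6, from the other strand, had 35.6% G and 7.05% C, against 6.28% to 16.2% G and 29.5% to 36.0% C in the other 12.

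Parts of these genes are copied in the nuclear genome, and reads from those parts can be placed in either. GENCODE 29 annotates 407 such nuclear copies by name, of which 49 had at least 1 count and 7 could be tested. Of these 7, 0 were called higher and 1 lower, against 24.3% and 26.2% of all tested genes. The 4 with the highest levels lie next to each other on chromosome 1. MTND2P28 (chromosome 1, 629640 to 630683), 98.4% identical to MT-ND2, had 355 ± 38.3 CPM in the miR-122-5p group and 422 ± 75.7 CPM in the control group (SD, n = 6 each; log2 fold change -0.25, edgeR adjusted p = 0.0592), and in control library 1 it had 268 CPM. MTATP6P1 (633696 to 634376), 98.5% identical to MT-ATP6, had 286 ± 26.5 CPM in the miR-122-5p group and 309.7 ± 31.8 CPM in the control group (SD, n = 6 each; log2 fold change -0.12, adjusted p = 0.226). MTCO1P12 had a log2 fold change of 0.30 (adjusted p = 0.0742) and MTCO3P12 was the one called lower (-1.15, adjusted p = 0.00172), on 8758 and 681 counts in all libraries. Counts of MTND2P28 were 27.6 ± 1.27% of the sum with MT-ND2 in the miR-122-5p group and 30.1 ± 1.205% in the control group. Summed with their copies, MT-ND2 was at -0.12 (adjusted p = 0.296) and MT-ATP6 at -0.08 (adjusted p = 0.393), again not called. Of all runs of 50 bases, 49.5% in MT-CO1, 46.7% in MT-ATP6, 43.6% in MT-ND2 and 30.6% in MT-CO3 occurred unchanged in a nuclear copy, but none in MT-ND3, MT-ND4L, MT-RNR1 or the tRNA genes.

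Of 74 nuclear genes for the same 4 complexes 49 were called higher with miR-122-5p and 5 lower, against 24.3% and 26.2% of all genes. With GC and length trends removed 58 were higher and 4 lower, against 23.0% and 23.8% of all genes. For complex I, 0 of 7 mitochondrial genes were called higher and 1 lower (median log2 fold change -0.07), beside 21 higher and 4 lower of 36 nuclear genes (median 0.32). NDUFA1, an accessory subunit, averaged 59.4 ± 5.82 CPM in the miR-122-5p group and 26.8 ± 4.38 CPM in the control group (SD, n = 6 each; log2 fold change 1.15, edgeR adjusted p = 7.11e-09). NDUFA6, NDUFV1 and NDUFS6 were also higher (0.59, 0.62 and 0.75), and NDUFA9, NDUFS4, NDUFC2 and NDUFB4 lower (-1.004, -0.40, -0.51 and -0.21), none of which was called lower with the GC slope as a covariate. For complex III 0 of 1 mitochondrial gene and 7 of 9 nuclear genes were higher (medians -0.11 and 0.39), with UQCR10, CYC1, UQCRH and UQCRB at 0.81, 0.67, 0.76 and 0.75 and none lower in either. UQCRH and UQCRB were not called with the GC slope as a covariate.

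For complex IV 0 of 3 mitochondrial and 9 of 12 nuclear genes were higher (medians -0.15 and 0.34), and none of either was lower, against 24.3% and 26.2% of all genes. COX5B averaged 572 ± 71.0 CPM in the miR-122-5p group and 319 ± 15.4 CPM in the control group (SD, n = 6 each; log2 fold change 0.85, edgeR adjusted p = 8.37e-09), and COX6A1, COX8A and COX5A were at 1.43, 0.98 and 0.68. For ATP synthase 0 of 2 mitochondrial genes were higher and 1 lower, beside 12 higher and 1 lower of 17 (median 0.33), with ATP5MC3, ATP5ME, ATP5MD and ATP5MF at 0.76, 1.28, 0.49 and 0.94 and ATP5F1C at -0.20. ATP5MF and ATP5F1C were not called with the GC slope as a covariate. The difference between the genomes was not itself tested. With GC and length trends removed 27, 8, 11 and 12 nuclear genes of complexes I, III, IV and V were called higher, and 4 of complex I lower; of the mitochondrial genes MT-ND3 and MT-CO3 were then higher and MT-ATP8 lower. With the GC slope as a covariate 11, 3, 8 and 8 nuclear genes of these complexes were called higher and 0 lower, against 7.22% and 12.2% of all genes, and 0 mitochondrial genes were called.

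**Figure D5:**
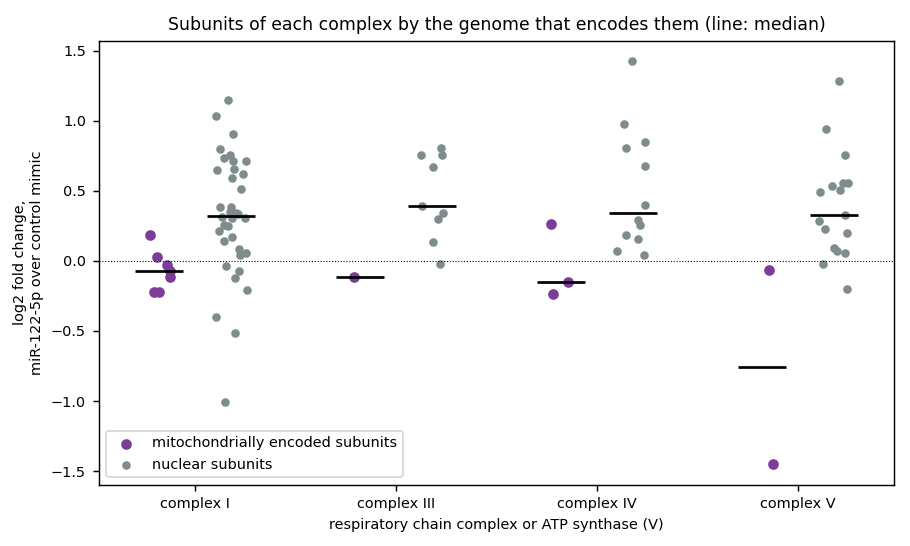
Log2 fold change, miR-122-5p over control (vertical axis), of each tested subunit gene of complexes I, III, IV and V (horizontal axis), mitochondrially encoded subunits in purple to the left of nuclear ones in grey, with the median of each as a line. Nuclear medians lie between 0.32 and 0.39 and mitochondrial ones below 0; that of complex V is the middle of 2 genes.

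The nuclear genes that copy the genome and make, process, modify and translate its RNA were listed by role. Of the 96 tested genes in these 6 lists 26 were called higher and 24 lower, against 24.3% and 26.2% of all genes. The split moved with the GC trend: 36 were higher and 13 lower with GC and length trends removed, against 23.0% and 23.8% of all genes, and 12 higher and 2 lower with the GC slope as a covariate, against 7.22% and 12.2%. Of 10 transcription genes 3 were higher and 3 lower, against 4 and 0 with GC and length trends removed and 2 and 0 with the GC slope. POLRMT, the mitochondrial RNA polymerase, averaged 90.8 ± 6.50 CPM in the miR-122-5p group and 55.9 ± 8.21 CPM in the control group (SD, n = 6 each; log2 fold change 0.70 ± 0.09 SE, edgeR adjusted p = 8.80e-07). The promoter factor TFB2M was also higher (0.31 ± 0.11, adjusted p = 0.0292), as was MRPL12 (2.04 ± 0.23, adjusted p = 1.61e-07), a ribosomal protein reported to bind the polymerase, at 7.53 CPM in the miR-122-5p group and 1.83 CPM in the control group. TFAM, which packages the genome and starts transcription, was at 0.11 ± 0.12 (adjusted p = 0.447), and with GC and length trends removed it was called higher (0.44, adjusted p = 0.00222). The elongation factor TEFM (-0.61), MTERF1 (-0.80) and MTERF3 (-0.36) were lower, and none of the 3 was called in either fit that takes the GC trend into account; POLRMT was not called with the GC slope (adjusted p = 0.0749).

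Of 21 RNA processing and decay genes 3 were higher and 7 lower, against 24.3% and 26.2% of all genes. With GC and length trends removed 10 were higher and 3 lower, against 23.0% and 23.8% of all genes, the lower ones being PNPT1, FASTKD5 and ELAC2. With the GC slope as a covariate 3 were higher, MTPAP, LRPPRC and FASTKD1, and 1 lower, PNPT1, against 7.22% and 12.2% of all genes. PNPT1, the polynucleotide phosphorylase that degrades mitochondrial RNA together with the helicase SUPV3L1 and is also induced by interferon, averaged 126 ± 14.6 CPM in the miR-122-5p group and 318 ± 33.2 CPM in the control group (SD, n = 6 each; log2 fold change -1.33 ± 0.08 SE, edgeR adjusted p = 3.23e-11). FASTKD5, FASTKD2 and FASTKD3, mitochondrial RNA-binding proteins, were lower (-0.60, -0.45 and -0.58), and so was ELAC2, which cuts the 3′ ends of tRNAs (-0.26, adjusted p = 0.0418). HSD17B10, a subunit of the enzyme that cuts their 5′ ends, FASTK, which is needed for MT-ND6 mRNA, and TBRG4 were higher (0.54, 0.48 and 0.17). None of these 3 was called with the GC slope (edgeR adjusted p = 0.0606, 0.230 and 0.697). TBRG4 was not called with GC and length trends removed either (0.05, adjusted p = 0.507). LRPPRC and SLIRP, the pair that stabilises the mRNAs, were at 0.13 (adjusted p = 0.271) and -0.02 (adjusted p = 0.873), and LRPPRC was called higher in both fits that take the GC trend into account (0.38 with GC and length, 0.58 with the GC slope).

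Of 19 genes that modify tRNA and rRNA 9 were higher, among them PUS1 (0.55), QTRT1 (0.56), TRMU (0.52) and TRUB2 (0.45), and 3 lower, TRMT5 (-0.71), NSUN3 (-0.54) and NSUN4 (-0.26). With GC and length trends removed 8 were higher and 2 lower, and TRMU, NSUN3 and NSUN4 were no longer called. With the GC slope 1 was higher, PUS1, and 0 lower. For each list of this paragraph the shares of all genes were 24.3% higher and 26.2% lower. They were 23.0% and 23.8% with GC and length trends removed, and 7.22% and 12.2% with the GC slope. Of 13 translation factors 1 was higher, the elongation factor TUFM (142 ± 7.04 CPM in the miR-122-5p group and 97.0 ± 6.999 CPM in the control group, SD, n = 6 each; log2 fold change 0.55, edgeR adjusted p = 4.58e-07). Its exchange factor TSFM (-0.59), the release factors MTRF1 (-0.58) and MTRF1L (-0.29) and the initiation factor MTIF3 (-0.39) were lower. With GC and length trends removed 3 translation factors were higher and 1 lower, TSFM, and with the GC slope TUFM was the 1 higher and 1 was lower. Of 16 aminoacyl-tRNA synthetases, which charge the tRNAs, 4 were higher (CARS2 0.51, AARS2 0.49, VARS2 0.58 and MARS2 0.64) and LARS2 was lower (-0.46), against 7 higher and 2 lower with GC and length trends removed and 3 higher and 0 lower with the GC slope.

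Genes of the organelle as a whole and of its DNA bear on how much template there may be, although no DNA was measured. Of 17 genes for DNA replication and nucleotide supply 6 were higher, among them TOP1MT (0.49), LONP1 (0.35), DNA2 (0.55) and DGUOK (0.26), and 6 lower, among them RRM2B (-0.53), TOP3A (-0.61), SUCLA2 (-0.42) and TK2 (-0.44). The shares of all genes were 24.3% higher and 26.2% lower. With GC and length trends removed 4 were higher and 5 lower, LONP1 and SUCLA2 no longer called, and with the GC slope 2 were higher and 0 lower. Of 13 genes for proteins often used as a measure of mitochondrial mass 7 were higher and 0 lower, against 24.3% and 26.2% of all genes, with the import pore gene TOMM40 at 1.02, PHB2 at 0.59, TIMM44 at 0.69 and TOMM22 at 0.38. The other 6 were not called: CS was at 0.02, TOMM20 at -0.07, VDAC2 at -0.09, HSPA9 at -0.12, VDAC3 at 0.11 and PHB at 0.11. With GC and length trends removed 9 were higher, TOMM20 and VDAC3 among them. With the GC slope 7 were higher, VDAC3 and CS among them but not TIMM44, and 0 were lower in both fits. Of 7 regulators of biogenesis ESRRA (0.75) and PPARGC1B (0.50) were higher and GABPB1 (-0.42) and GABPA (-0.26), the subunits of nuclear respiratory factor GABP, lower. Neither GABP subunit was called in the fits that take the GC trend into account, where GABPA was at 0.10 with GC and length and 0.25 with the GC slope; ESRRA was called in the first of them and PPARGC1B in both.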

How the data were processed

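The authors deposited 1 table of raw counts per gene for 12 libraries, with no normalization. Per the labels' protocols, RNA was harvested with Trizol and 1 µg was made into libraries with an NEBNext Ultra RNA kit. The submitters' processing notes list the tools HISAT2 (2.0.5) and featureCounts (1.5.0-p3) and the build hg38. How they were set, whether strand was used and how reads that fit several places or genes were treated is not given in the sources used here, so overlapping genes and near-identical copies are uncertain. Control columns were matched to control samples by name and number.

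All 58735 identifiers were found in GENCODE 29. The filterByExpr function in R 4.3.3 kept 15471 genes, while 28537 were at 0 in every library; TMM factors were computed, and groups were compared with edgeR 4.0.16. Log2 CPM used a prior count of 2. Class shares and ratios are described without tests. Members, gene lists and tests were chosen with earlier results of these data known. All mRNA and rRNA members, each tested tRNA, up to 4 called genes of smallest p in each direction of each nuclear list, 7 fixed nuclear genes and the 4 most abundant nuclear copies are named; others were chosen after their values were seen. Alternatives were DESeq2 1.42.0, limma-voom with limma 3.58.1, other scalings and filters, GC content and length (splines with 4 degrees of freedom; 6 tested genes with no transcript sequence were given the median), each library's GC slope, each library left out, and the replicate number as a block. Tested on simulated data for these 15471 genes, the edgeR step found 8% of planted changes of 0.25 (log2), 56% of those of 0.5, 80% of those of 1 and 100% of those of 2, and made 9 false calls. Changes were planted in a small random part of the genes, whereas 50.5% were called in the data, which makes the adjustment stricter in the simulation. Its shares are therefore not those to be found among the mitochondrial genes, most of which have high counts. Between any pair of libraries of a group the chi-square of the counts was 7.84 to 72.9 per degree of freedom, above sampling noise, and no library was counted as a repeat. Sequences are from GENCODE 29 transcripts and, for the microRNA, RefSeq.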

Additional observations from a re-analysis of the deposited data

Results flagged for a closer look

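A library was looked for that stood apart from the other 5 of its group, by a gap to its neighbour of more than 0.625 of the group's whole range (Dixon's criterion), in 40 groups of values; chance gives about 1 in 20. It was met 17 times. The 40 groups come from the same 12 libraries, and the class shares are sums over the genes, so the groups are not independent. The 17 therefore cannot be set against that rate as separate events. Control library 1 was the low one of the control group for 9 genes: MT-ND1 at 931 CPM, MT-ND2 at 677 CPM, MT-CO2 at 2217 CPM, MT-ATP6 at 1112 CPM, MT-CO3 at 1769 CPM, MT-ND3 at 415 CPM, MT-ND4 at 2163 CPM, MT-ND5 at 364 CPM and MT-CYB at 779.9 CPM. Its share of counts in mitochondrial mRNA, 1.76%, stood apart as well.

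Control library 6 was high for MT-TP at 19.7 CPM and for the share of counts in tRNA genes at 0.00196%, and low for MT-ND4L at 187 CPM. It also had the fewest genes with a count, 19298, and the highest MT-ATP8. Of the miR-122-5p libraries, library 6 was high for MT-RNR2 at 5915 CPM, MT-CO2 at 3520.4 CPM and MT-CO3 at 4127 CPM, and library 2 was low for MT-ATP8 at 0.807 CPM, which is 24 counts.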

How the results depend on the processing

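The count of mRNA genes called, 2 with all libraries, was 4 by limma-voom (1 higher, 3 lower; 51.2% of all genes called), 1 with RLE size factors (50.5% of all genes), 6 with no low-count filter (2 higher, 4 lower; 26.2% of all genes), 0 with the GC slope as a covariate, 7 without control libraries 1 and 6 and 1 at an adjusted p under 0.01; with 1 library left out in turn it ran from 1 to 7. DESeq2 gave 1 higher and 2 lower, and library totals, scaling to mitochondrial mRNA and the GC and length correction each gave 2 higher and 1 lower, so the direction split of the few calls depends on scaling. The count of rRNA genes called, 1, was 0 with library totals, scaling to mitochondrial mRNA, no filter, the GC and length correction, the GC slope or an adjusted p under 0.01, and 2 without control libraries 1 and 6; with 1 library left out it ran from 0 to 2. The tRNA call became 0 with the GC slope only. All genes called, 7810, became 3004 with the GC slope. Calls in the nuclear expression lists, 50, became 14 with the GC slope and 32 at an adjusted p under 0.01, and those in nuclear subunits, 54, became 30 with the GC slope.

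Of 402 alternative values of single members 318 kept direction and side of the threshold, 34 lost the call, 33 gained it and 17 changed sign. Those that changed sign were MT-RNR1 (0.035 scaled to mitochondrial mRNA, 0.013 with GC and length; -0.20 to 0.016 with 1 library left out in turn), MT-ND2 (0.017 scaled to mitochondrial mRNA, 0.079 with GC and length), MT-ATP6 (0.011 and 0.025 in the same order), MT-ND3 (-0.039 with the GC slope), MT-ND4 (0.023 with GC and length), MT-ND5 (-0.079 with the GC slope, -0.053 without control libraries 1 and 6; -0.049 to 0.072 with 1 left out) and MT-ND6 (0.011 with library totals, 0.051 scaled to mitochondrial mRNA, 0.081 with GC and length; -0.084 to 0.052 with 1 left out). None was called in a setting where its sign differed. The causes were not tested.

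Replicate numbers did not pair the libraries: same-numbered libraries deviated together with correlations of -0.105 to 0.066 over genes. With the replicate number as a block 2 mRNA genes were called, MT-ATP8 lower and MT-CO3 higher (0.29, edgeR adjusted p = 0.0289), MT-ND4L was not (adjusted p = 0.0575), 1 rRNA and 1 tRNA gene were called lower, and 7587 of all genes were called. The settings without control libraries 1 and 6 together and with nuclear copies added in were chosen after seeing the data. So was the weight given to the fit without control library 1, although each library was left out in turn. MT-ATP8, MT-TP and the other tRNA genes had few or no counts. At 6 libraries a group the simulation recovered 8% of changes of 0.25 (log2), over genes drawn at random, which is not the share for these members.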
